A study of Mus musculus with 20 samples.

Results

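When portal mesenchymal cells and hepatic stellate cells of the mouse liver were grown in culture, 3396 genes rose and 3553 fell in both lineages. These 6949 genes, of 14751 tested and 24848 in the tables, form the shared activation core described here. A gene was taken into the core when 3 tests called it (edgeR adjusted p under 0.05) with 1 sign. The tests were the main effect of culture, which sets the mean of both cultured groups against the mean of both fresh groups, and the culture change of each lineage alone. The core held 47.1% of the genes tested, 23% as genes that rose and 24.1% as genes that fell. Because these tests chose the members, their culture changes are given as descriptions without p-values.

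All cells came from livers of C57BL/6 mice. The cultured groups were the myofibroblasts that portal mesenchymal stem cells had formed after 7 days (PMSC-MF-7d) and those formed by hepatic stellate cells (HSC-MF-7d). The groups they were set against were the uncultured cells of each kind, called fresh here (PMSC and HSC), and each of the 4 groups held 4 libraries. The titles give 7 days for the stellate myofibroblasts and were followed, whereas the series description gives 3 days, so the time of this group is uncertain. One further group of 4 libraries, portal myofibroblasts at 3 days (PMSC-MF-3d), took no part in the choice of members. The labels name no agent for any group and do not say how cells were isolated. Nor is it stated if replicates are different mice or cultures, so the p-values reflect variation among these libraries, which may be technical.

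Myofibroblasts are the contractile, matrix-depositing cells of scars. In the injured liver they arise mainly from stellate cells, pericytes of the sinusoids that store vitamin A, and from fibroblasts around the portal vein. Activation is known as a change from a quiescent, lipid-storing or progenitor-like state to a dividing cell with smooth muscle actin fibres, which secretes collagen and crosslinks it. Growth on stiff plastic is known to start this change without an injury.

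Summed expected counts ranged from 11810532 to 26675589 over the 20 libraries. Levels are in CPM, counts scaled to a common library size by trimmed means, and changes are log2 fold changes of cultured over fresh cells with their standard error (± SE). Core genes that rose held 44.4% to 48.5% of the summed CPM in PMSC-MF-7d libraries, against 13.1% to 14.5% in PMSC libraries. In the stellate lineage they held 44.1% to 45.2% in HSC-MF-7d, against 15.4% to 16% in HSC. Core genes that fell held 10.7% to 13.2% in PMSC-MF-7d against 41.4% to 45.3% in PMSC, and 12.1% to 12.5% in HSC-MF-7d against 48.1% to 49.9% in HSC. Fresh stellate libraries also held hepatocyte RNA, with a summed 5259 to 25870.0 CPM over 20 hepatocyte markers, against 1280.0 to 2321 CPM in PMSC. Of these markers Cyp2e1 averaged 815 CPM in PMSC and 164 CPM in HSC. In bulk libraries such as these, fewer cells of a type and less RNA per cell cannot be told apart.

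Acta2, the smooth muscle actin that defines myofibroblasts, had 5612, 6316, 5847 and 6463 CPM in the PMSC-MF-7d libraries, against 187, 142, 155 and 275 CPM in the PMSC libraries. In the stellate lineage it had 3472, 3204, 2697 and 3499 CPM in the HSC-MF-7d libraries, against 5.91, 12.6, 7.65 and 7.71 CPM in the HSC libraries. Cultured and fresh libraries did not overlap in either lineage, as for 39.9% of all genes tested (in 1 direction), and the fresh portal cells already stood far above the fresh stellate cells. The change was 5.0 ± 0.22 in the portal and 8.57 ± 0.26 in the stellate lineage. On mm10 the gene spans 34240336 to 34255585 on chromosome 19, exons and introns together.

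Timp1, an inhibitor of matrix metalloproteinases on chromosome X, had 614, 788, 747 and 822 CPM in the PMSC-MF-7d libraries, against 127, 141, 219 and 152 CPM in the PMSC libraries. It had 425, 417, 394 and 417 CPM in the HSC-MF-7d libraries, against 1.09, 5.96, 1.38 and 1.31 CPM in the HSC libraries. Every cultured library was above every fresh library, and among the fresh stellate libraries replicate 2 stood above the others. The change was 2.22 ± 0.29 in the portal and 7.40 ± 0.38 in the stellate lineage, and 8.37 in the stellate lineage without HSC replicate 2. Lox, the enzyme that crosslinks collagen and elastin, had 3077, 3284, 3889 and 3945 CPM in the PMSC-MF-7d libraries, against 662, 1068, 692 and 729.5 CPM in the PMSC libraries. It had 1624, 1312, 1446 and 1239 CPM in the HSC-MF-7d libraries, against 2.96, 12.5, 2.26 and 5.62 CPM in the HSC libraries. Again the groups did not overlap and HSC replicate 2 was the highest fresh stellate library. The Lox change was 2.17 ± 0.30 in the portal and 7.91 ± 0.40 in the stellate lineage, and 8.63 in the stellate lineage without that library.

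Mki67, a nuclear protein of dividing cells, had 275, 252, 276 and 246 CPM in the PMSC-MF-7d libraries, against 5.12, 15.4, 5.54 and 6.45 CPM in the PMSC libraries. It had 117, 120.3, 114 and 138 CPM in the HSC-MF-7d libraries, against 33.9, 22.5, 33.8 and 21.4 CPM in the HSC libraries. Groups were apart in both lineages, but here the fresh stellate libraries were above the fresh portal ones. The change was 4.99 ± 0.27 in the portal and 2.13 ± 0.23 in the stellate lineage. The plot of levels by library shows the opposite ranking of the fresh groups for Mki67 and for the other 3 markers.

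**Figure D1:**
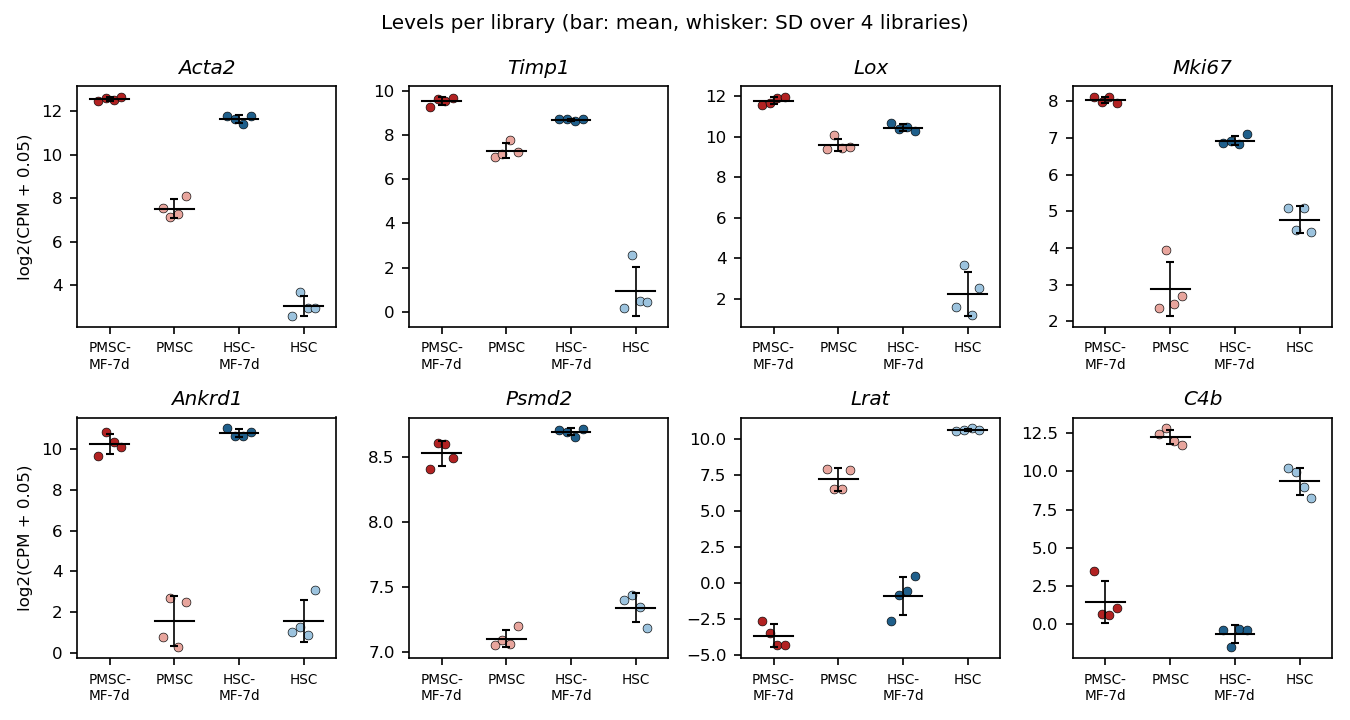
Levels of 8 core genes in each library on a log2(CPM + 0.05) scale, with the group mean (bar) and SD (whisker) over 4 libraries. For each gene all 4 cultured libraries of a lineage lie on 1 side of its 4 fresh libraries, above them for Acta2 to Psmd2 and below them for Lrat and C4b.

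Most changes in the core were moderate, with a long tail. Genes that rose had a median change of 1.27 in the portal and 1.12 in the stellate lineage, and genes that fell -2.14 and -1.98, while over all genes tested the medians were 0.00 and -0.03. At least 2-fold in each lineage were 1496 of the genes that rose and 2256 of those that fell. At least 10-fold in each were 322 and 915. The core held 60.5% of the genes called higher in portal culture and 63.9% of those called higher in stellate culture. For genes called lower these shares were 61.8% and 62.6%. Portal culture alone called 38.1% of genes higher and 39.0% lower, and stellate culture 36.0% and 38.5%. Another 1725 genes (11.7%) were called in both lineages with opposite signs, 796 (5.4%) of them higher in portal and lower in stellate culture and 929 (6.3%) the other way.

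The split between rising and falling genes depended on the scaling. Genes that rose made up 48.9% of the core with trimmed means, 61.9% with library totals alone and 65% with limma on log2(TPM + 1). For the main effect, which called 39.8% of genes higher and 40.1% lower, these shares of higher calls were 49.8%, 60.5% and 58.7%. Library totals moved the median change of all genes to 0.43 in the portal and 0.08 in the stellate lineage, so the changes here are relative to the trimmed-mean scale.

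**Figure D2:**
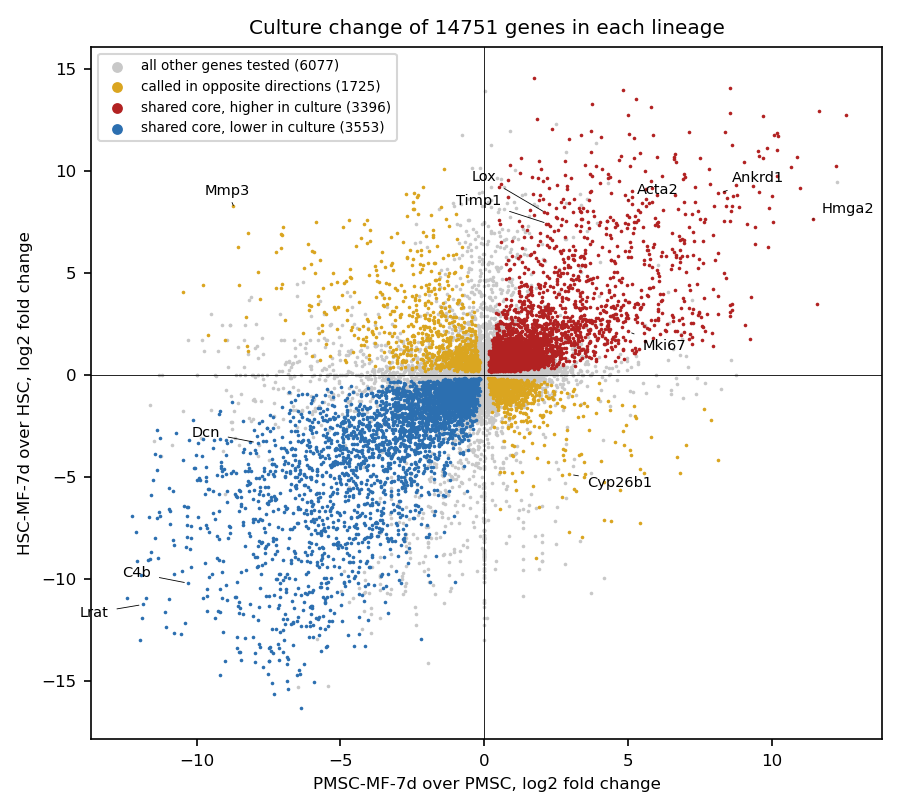
Log2 fold change of every gene tested in portal culture (PMSC-MF-7d over PMSC, x axis) and in stellate culture (HSC-MF-7d over HSC, y axis). The 3396 core genes that rose fill the upper right and the 3553 that fell the lower left, and the 1725 genes called with opposite signs lie upper left and lower right.

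The genes furthest up in both lineages at once were nearly silent in fresh cells. Ankrd1, a nuclear ankyrin repeat protein and a well-known YAP target, had 803, 1806, 1296 and 1113 CPM in the PMSC-MF-7d libraries, against 1.66, 6.44, 1.15 and 5.64 CPM in the PMSC libraries. It had 2068, 1608, 1599.6 and 1832 CPM in the HSC-MF-7d libraries, against 1.99, 2.32, 1.76 and 8.30 CPM in the HSC libraries. Every fresh library was below every cultured one by a wide margin. The change was 8.33 ± 0.53 in the portal and 8.97 ± 0.54 in the stellate lineage, and 9.79 in the stellate lineage without HSC replicate 4.

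Tll1, a tolloid protease that cleaves procollagen, had 248, 428, 348 and 265 CPM in the PMSC-MF-7d libraries, against 0.200, 0.821, 0.104 and 0.174 CPM in the PMSC libraries. In the stellate lineage it had 378, 241, 257 and 242 CPM in the HSC-MF-7d libraries, against 0, 0.477, 0 and 0 CPM in the HSC libraries. The groups were apart, with HSC replicate 2 holding all of the fresh stellate counts. Its change was 9.84 ± 0.42 in the portal and 11.12 ± 0.46 in the stellate lineage, 10.78 without PMSC replicate 2 in the portal and, against a floor of 3 counts over the HSC libraries left, at least 4666-fold higher in HSC-MF-7d without HSC replicate 2. The same floor was used for other genes where leaving out a library left no count, and 1 to 3 counts left are given as a fold with its 95% counting interval in brackets. Cemip, which takes part in the breakdown of hyaluronan, averaged 1969 ± 348 CPM in PMSC-MF-7d and 1.6 ± 0.874 CPM in PMSC, and 133 ± 37.0 CPM in HSC-MF-7d and 0.149 ± 0.298 CPM in HSC. It rose by 10.18 ± 0.42 in the portal and 9.74 ± 0.50 in the stellate lineage, and was at least 2217-fold higher in HSC-MF-7d without HSC replicate 2.

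Hmga2, an architectural chromatin protein of embryonic tissue, averaged 208 ± 50.8 CPM in PMSC-MF-7d and 0.0594 ± 0.0822 CPM in PMSC, and 281 ± 15.3 CPM in HSC-MF-7d and 1.41 ± 1.09 CPM in HSC. It rose by 11.43 ± 0.44 in the portal and 7.63 ± 0.31 in the stellate lineage, or by 8.36 in the stellate lineage without HSC replicate 2. Without PMSC replicate 4 it was 8426-fold (1512 to 332800.0) higher in PMSC-MF-7d. Of the 5 oncofetal RNA-binding and chromatin genes tested, 4 were in the core as risen, namely Hmga1, Hmga2, Igf2bp1 and Igf2bp3. Hmga1, a relative of Hmga2, rose by 2.39 ± 0.18 in the portal and 3.26 ± 0.19 in the stellate lineage.

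Several of these genes had no or few counts in fresh cells. Prl2c2, a prolactin family member that shares reads with near-identical copies and is uncertain for that reason, was at least 718-fold higher in PMSC-MF-7d than in PMSC and at least 909-fold higher in HSC-MF-7d than in HSC. Siglecg, a sialic acid-binding lectin known from B cells, was 2194-fold (95% counting interval 607 to 18110.0) higher in portal culture. In stellate culture it was 2281-fold (95% counting interval 409 to 90090.0) higher. Crct1, a cornified envelope gene, averaged 26.9 CPM in PMSC-MF-7d and 135 CPM in HSC-MF-7d, with 1 count over the 4 PMSC libraries and 2 over the 4 HSC libraries. Cck, the peptide hormone cholecystokinin, was at least 971-fold higher in HSC-MF-7d than in HSC, where it had no count. In the portal lineage Cck rose by 8.56 ± 0.48, and was at least 406-fold higher in PMSC-MF-7d without PMSC replicate 1.

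Ptprn, a secretory granule protein of endocrine cells, averaged 158 CPM in PMSC-MF-7d against 0.186 CPM in PMSC, and 104 CPM in HSC-MF-7d against 0.0449 CPM in HSC. Scel, an epithelial envelope protein, rose by 7.98 ± 0.49 in the portal and 8.28 ± 0.53 in the stellate lineage, or by 8.73 in the portal lineage without PMSC replicate 2. It was at least 673-fold higher in HSC-MF-7d without HSC replicate 4. The 10 genes furthest up thus included genes known from epithelia, endocrine cells and placenta beside the matrix protease Tll1. They were chosen for their size, and this mix was not tested.

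Dividing-cell genes rose nearly throughout. Of 38 genes of mitosis 35 were in the core as risen and 1 as fallen, and of 40 genes of DNA replication 31 had risen, 0 had fallen and 2 were called with opposite signs. The median change of the mitosis list was 5.31 in the portal and 2.42 in the stellate lineage, and that of the replication list 2.10 in the portal and 1.30 in the stellate lineage. All 35 mitosis genes that rose had culture changes that differed between the lineages (edgeR adjusted p under 0.05 for the difference), against 19 of the 31 replication genes. Over all core genes that rose the difference was called for 52.6%, with 1046 larger in the portal and 740 larger in the stellate lineage. Under library totals alone 36 of each list had risen.

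Among the mitosis genes that rose, changes spanned 3.4 to 9.05 in the portal and 1.10 to 3.88 in the stellate lineage, and the difference was in favour of the portal lineage for each of them. Plk1, a kinase that drives entry into mitosis, averaged 60.8 ± 7.11 CPM in PMSC-MF-7d and 0.495 ± 0.408 CPM in PMSC, and 20.5 ± 2.44 CPM in HSC-MF-7d and 1.49 ± 0.598 CPM in HSC. It rose by 6.90 ± 0.32 in the portal and 3.77 ± 0.26 in the stellate lineage, and by 7.49 in the portal lineage without PMSC replicate 2. Bub1, a kinase of the spindle checkpoint, rose by 8.55 ± 0.35 in the portal and 3.44 ± 0.24 in the stellate lineage, and was 670.0-fold (229 to 3249) higher in PMSC-MF-7d without the same library. Ube2c, the ubiquitin-conjugating enzyme of the anaphase-promoting complex, rose by 5.68 ± 0.26 in the portal and 3.88 ± 0.24 in the stellate lineage, and the spindle kinase Aurka by 5.20 ± 0.21 in the portal and 3.32 ± 0.18 in the stellate lineage. The single mitosis gene that fell was Pttg1 (securin). Its levels were 11.2, 10.2, 10.8 and 15.02 CPM in the PMSC-MF-7d libraries, against 42.8, 33.7, 52.4 and 49.1 CPM in the PMSC libraries. It had 10.04, 8.11, 8.04 and 11.05 CPM in the HSC-MF-7d libraries, against 38.7, 37.1, 38.6 and 38.0 CPM in the HSC libraries, apart from the cultured libraries in both lineages, a change of -1.91 ± 0.14 in the portal and -2.03 ± 0.15 in the stellate lineage.

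Of the replication genes that rose, 13 had a called difference in favour of the portal lineage and 6 in favour of the stellate lineage. Rrm2, a subunit of the ribonucleotide reductase that makes DNA precursors, had 124, 177, 186 and 161 CPM in the PMSC-MF-7d libraries, against 7.45, 5.49, 6.16 and 6.04 CPM in the PMSC libraries. It had 175, 163, 155 and 167 CPM in the HSC-MF-7d libraries, against 7.97, 6.26, 6.44 and 5.42 CPM in the HSC libraries. These levels were nearly alike in both cultured and both fresh groups, and the changes were 4.69 ± 0.14 in the portal and 4.66 ± 0.14 in the stellate lineage. Ccne2, a cyclin of the start of S phase, rose by 3.30 ± 0.16 in the portal and 4.66 ± 0.18 in the stellate lineage. Gins2, part of the replicative helicase, rose by 5.42 ± 0.29 in the portal and 3.28 ± 0.26 in the stellate lineage, and Chaf1a, a histone chaperone of replication, by 3.47 ± 0.17 in the portal and 2.92 ± 0.17 in the stellate lineage. Pcna, the sliding clamp of DNA polymerase, was not in the core, with -0.95 ± 0.08 in the portal lineage and 0.29 ± 0.08 in the stellate lineage (edgeR adjusted p = 2.0e-09 and 0.0034).

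Promoters of the mitosis genes shared sequence that the choice of members did not use. In dividing cells the CCAAT box, bound by NF-Y, and the cell cycle homology region (CHR) TTTGAA or TTTAAA, bound by the DREAM and B-Myb complexes, are known elements of late cell cycle promoters. Both occurred together, on either strand and without overlap in the promoters shown, in 71.9% of the 32 mitosis genes with a RefSeq promoter. The share was 7.94% of the 11463 promoters of all genes tested, 9.60% of those of core genes that rose and 6.93% of those that fell. Of 31 replication promoters 58.1% held a CCAAT box, against 38.6% of all genes tested, and 16.1% held both motifs. A CCAAT box alone did not mark cell cycle lists, as 56.5% of 23 contractile promoters held it. It was found in 42.9% of proteasome and 41.7% of immediate-early promoters. The 4 promoters below, of genes picked after their values were seen, run from 250 bases before to 50 bases after the start site (RefSeq, GRCm38.p6), with both motifs in capitals in either orientation:
Ccnb1: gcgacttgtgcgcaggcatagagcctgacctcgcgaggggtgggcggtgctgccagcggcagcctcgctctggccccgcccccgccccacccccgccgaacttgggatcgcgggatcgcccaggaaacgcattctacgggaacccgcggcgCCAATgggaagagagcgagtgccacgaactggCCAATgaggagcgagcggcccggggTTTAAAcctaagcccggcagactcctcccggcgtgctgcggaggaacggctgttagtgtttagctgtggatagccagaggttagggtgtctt
Cdk1: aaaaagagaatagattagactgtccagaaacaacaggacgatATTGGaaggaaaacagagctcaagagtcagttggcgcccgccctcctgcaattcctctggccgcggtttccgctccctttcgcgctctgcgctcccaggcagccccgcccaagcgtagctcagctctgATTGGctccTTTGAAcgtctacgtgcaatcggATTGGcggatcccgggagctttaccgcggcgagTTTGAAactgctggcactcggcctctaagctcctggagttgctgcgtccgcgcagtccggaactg
Aurka: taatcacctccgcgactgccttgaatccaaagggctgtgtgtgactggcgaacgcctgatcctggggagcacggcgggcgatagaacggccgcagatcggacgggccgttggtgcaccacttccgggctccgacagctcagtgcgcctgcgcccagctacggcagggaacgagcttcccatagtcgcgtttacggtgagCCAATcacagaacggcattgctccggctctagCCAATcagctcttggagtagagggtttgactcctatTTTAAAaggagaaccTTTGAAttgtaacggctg
Plk1: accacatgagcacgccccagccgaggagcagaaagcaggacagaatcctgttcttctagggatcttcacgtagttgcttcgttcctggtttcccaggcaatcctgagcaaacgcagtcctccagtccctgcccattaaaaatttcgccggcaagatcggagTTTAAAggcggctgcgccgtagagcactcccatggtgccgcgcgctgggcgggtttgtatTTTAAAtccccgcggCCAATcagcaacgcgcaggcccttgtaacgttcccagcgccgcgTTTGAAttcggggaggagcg

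They lie at chr13:100786437-100786736 (minus strand), chr10:69352863-69353162 (minus), chr2:172370521-172370820 (minus) and chr7:122159185-122159484 (plus). Ccnb1, the mitotic cyclin, held 2 CCAAT boxes and 1 CHR, and averaged 66.3 ± 5.10 CPM in PMSC-MF-7d and 0.359 ± 0.413 CPM in PMSC and 25.7 ± 1.75 CPM in HSC-MF-7d and 3.0 ± 1.40 CPM in HSC. Its change was 7.49 ± 0.37 in the portal and 3.09 ± 0.27 in the stellate lineage, 8.71 in the portal lineage without PMSC replicate 2. Cdk1, the kinase partner of that cyclin, held 3 and 2, and rose by 7.25 ± 0.30 in the portal and 2.52 ± 0.21 in the stellate lineage, or 8.15 in the portal lineage without PMSC replicate 2. A match to these letters is a description of the window and not a measured binding site.

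Regulators of the cell cycle moved less uniformly. Of 20 such genes 10 rose in both lineages, 3 fell and 6 were called with opposite signs. Ccng1, a p53 target cyclin, had 729, 944, 937 and 860.1 CPM in the PMSC-MF-7d libraries, against 74.6, 60.4, 79.4 and 83.2 CPM in the PMSC libraries. It had 1025, 1058, 1058 and 1059 CPM in the HSC-MF-7d libraries, against 85.5, 92.1, 79.5 and 79.0 CPM in the HSC libraries. All cultured libraries were above all fresh ones by 3.54 ± 0.11 in the portal and 3.64 ± 0.11 in the stellate lineage. The inhibitor Cdkn2b (p15) rose by 4.90 ± 0.36 in the portal and 3.69 ± 0.33 in the stellate lineage, or 5.51 in the portal lineage without PMSC replicate 2.

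Cyclin D2 (Ccnd2) rose by 2.85 ± 0.14 in the portal and 2.5 ± 0.14 in the stellate lineage, and its kinase partner Cdk6 by 1.91 ± 0.15 in the portal and 2.42 ± 0.15 in the stellate lineage. Of the fallen regulators, Cdkn1c, the imprinted inhibitor p57, had 1.56, 0.489, 0.660 and 0.672 CPM in the PMSC-MF-7d libraries, against 71.4, 82.4, 78.9 and 49.7 CPM in the PMSC libraries. It had 4.73, 3.5, 4.36 and 4.67 CPM in the HSC-MF-7d libraries, against 16.1, 12.6, 17.3 and 18.8 CPM in the HSC libraries. No cultured library overlapped a fresh one, and the changes were -6.36 ± 0.29 in the portal and -1.91 ± 0.24 in the stellate lineage, which differed by -4.46 ± 0.36 (edgeR adjusted p = 2.6e-09). Rbl2, a pocket protein of quiescent cells, fell, with changes of -1.95 ± 0.13 in the portal and -1.48 ± 0.13 in the stellate lineage. Cyclin D1 (Ccnd1), in contrast, changed by 4.01 ± 0.13 in portal culture and -0.39 ± 0.11 in stellate culture, and the inhibitor p21 (Cdkn1a) by -0.54 ± 0.11 and 2.20 ± 0.11, so neither belonged to the core (edgeR adjusted p at or below 0.00504 for each change).

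Contractile genes formed a second risen block. Of 28 tested 20 rose in both lineages, none fell in both and 2, Tagln2 and Csrp2, were called with opposite signs, and the median change was 1.72 in the portal and 1.99 in the stellate lineage. Under library totals alone 23 were in the core. Actg2, the enteric smooth muscle actin, averaged 943 ± 209 CPM in PMSC-MF-7d and 9.0 ± 3.47 CPM in PMSC, and 176 ± 32.0 CPM in HSC-MF-7d and 0.119 ± 0.106 CPM in HSC, and rose by 6.69 ± 0.28 in the portal and 10.45 ± 0.41 in the stellate lineage. Calponin (Cnn1), an actin-binding protein of smooth muscle, rose by 6.0 ± 0.26 in the portal and 10.70 ± 0.39 in the stellate lineage, and was 5843-fold (1617 to 48250.0) higher in HSC-MF-7d without HSC replicate 2. Tropomyosin 2 (Tpm2), which stabilises actin filaments, rose by 3.58 ± 0.11 in the portal and 3.82 ± 0.11 in the stellate lineage. The difference of the 2 changes was called for 14 of the 20, with a larger rise in the portal lineage for 6 and in the stellate lineage for 8. It was called for 52.6% of all core genes that rose.

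The CArG box, the site read by serum response factor in muscle promoters, was found in 3 of the 23 contractile promoters of the RefSeq table (13.0%) and in 1.29% of the promoters of all genes tested. That of Myl9, the myosin light chain of smooth muscle, at chr2:156775214-156775513 (plus strand), is shown as an example, with the box in capitals:
Myl9: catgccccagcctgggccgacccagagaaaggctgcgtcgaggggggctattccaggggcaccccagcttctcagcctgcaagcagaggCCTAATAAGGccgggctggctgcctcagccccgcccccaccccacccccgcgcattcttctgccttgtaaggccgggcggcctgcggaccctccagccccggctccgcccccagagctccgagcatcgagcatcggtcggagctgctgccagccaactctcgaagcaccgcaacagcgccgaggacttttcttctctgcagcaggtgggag
Myl9 averaged 605 ± 35.0 CPM in PMSC-MF-7d and 142 ± 24.7 CPM in PMSC, and 535 ± 51.4 CPM in HSC-MF-7d and 66.8 ± 12.1 CPM in HSC, and rose by 2.09 ± 0.13 in the portal and 3.0 ± 0.14 in the stellate lineage.

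Genes of the actin and tubulin cytoskeleton outside the contractile list rose for 17 of 28 and fell for 1, Rhob, while 3 were called with opposite signs. S100a4, a calcium-binding protein of motile fibroblasts, rose by 6.95 ± 0.28 in the portal and 6.60 ± 0.39 in the stellate lineage, or 7.21 in the stellate lineage without HSC replicate 4, yet its levels after culture were far apart, 1438 CPM in PMSC-MF-7d and 17.99 CPM in HSC-MF-7d. S100a6, a relative, rose by 1.89 ± 0.23 in the portal and 8.59 ± 0.33 in the stellate lineage. Diaph3, a formin that builds actin filaments, rose by 7.64 ± 0.19 in the portal and 3.76 ± 0.14 in the stellate lineage, and annexin A1 (Anxa1), a membrane-binding protein, by 1.73 ± 0.13 in the portal and 2.71 ± 0.13 in the stellate lineage. Rhob, a GTPase of endosomes, changed by -1.32 ± 0.11 in the portal and -2.36 ± 0.12 in the stellate lineage.

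YAP and TEAD genes rose in part. Of 22 factors and targets 11 rose in both lineages, 4 fell and 5 were called with opposite signs. Besides Ankrd1, the LIM protein Ajuba rose by 4.66 ± 0.18 in the portal and 2.69 ± 0.15 in the stellate lineage, the membrane repair protein Myof by 1.52 ± 0.20 in the portal and 3.92 ± 0.22 in the stellate lineage and Crim1, a membrane protein that binds BMPs, by 2.60 ± 0.13 in the portal and 1.35 ± 0.12 in the stellate lineage. Igfbp3, which binds insulin-like growth factors, fell instead, with -8.97 ± 0.50 in the portal and -4.85 ± 0.41 in the stellate lineage, or -9.83 in the portal lineage without PMSC-MF-7d replicate 1. The stress gene Gadd45a fell with -3.40 ± 0.20 in the portal and -0.66 ± 0.18 in the stellate lineage. The co-activators themselves were not core members. Yap1 changed by -0.39 ± 0.11 in the portal lineage and 0.66 ± 0.11 in the stellate lineage, and Wwtr1 (TAZ) by -1.15 ± 0.08 and 0.63 ± 0.08 (edgeR adjusted p at or below 0.00245 for each change).

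Matrix genes split in both directions. Of 28 collagens and matrix proteins 11 rose in both lineages and 9 fell in both, 39.3% and 32.1% of the list. Col11a1, a minor fibrillar collagen, rose by 5.87 ± 0.33 in the portal lineage, or 6.48 without PMSC replicate 1. In the stellate lineage it was 4195-fold (95% counting interval 1161 to 34640.0) higher, against 2 counts over the 4 HSC libraries. Col12a1, a collagen on the surface of fibrils, averaged 1322 ± 194 CPM in PMSC-MF-7d and 278 ± 61.2 CPM in PMSC, and 1566 ± 133 CPM in HSC-MF-7d and 2.73 ± 3.56 CPM in HSC. It rose by 2.25 ± 0.39 in the portal and 9.16 ± 0.55 in the stellate lineage, or 10.68 in the stellate lineage without HSC replicate 2.

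Col8a1, a network collagen of vessel walls, rose by 2.91 ± 0.38 in the portal and 3.74 ± 0.40 in the stellate lineage, and the matricellular protein Ctgf by 1.6 ± 0.21 in the portal and 4.21 ± 0.24 in the stellate lineage. Fallen members included small proteoglycans and chains of collagen VI. Decorin (Dcn), which binds collagen fibrils and TGF-beta, had 137, 45.1, 52.8 and 65.5 CPM in the PMSC-MF-7d libraries, against 18233, 17853, 16769 and 18100.0 CPM in the PMSC libraries. It had 1176, 1364, 1456 and 1260.5 CPM in the HSC-MF-7d libraries, against 11013, 14561, 14300.0 and 12945 CPM in the HSC libraries. Fresh libraries were above cultured ones throughout, and Dcn changed by -7.88 ± 0.31 in the portal and -3.33 ± 0.25 in the stellate lineage. Lumican (Lum), a related proteoglycan, changed by -8.95 ± 0.64 in the portal and -3.33 ± 0.49 in the stellate lineage, or -10.40 in the portal lineage without PMSC-MF-7d replicate 1.

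The chains of collagen I, the main collagen of scars, were not core members. Col1a1 averaged 9813 ± 1308 CPM in PMSC-MF-7d and 8413 ± 1382 CPM in PMSC, a change of 0.22 ± 0.30 that did not pass the test (edgeR adjusted p = 0.51). It averaged 2285 ± 93.6 CPM in HSC-MF-7d and 239 ± 186 CPM in HSC, a change of 3.26 ± 0.33 (edgeR adjusted p = 2.8e-08), or 3.98 without HSC replicate 2. Col1a2 fell in portal culture with -0.83 ± 0.14 (adjusted p = 2.5e-05) and changed by 0.09 ± 0.14 in stellate culture (adjusted p = 0.56). Col3a1, the collagen III chain, was in the core as a fallen gene, with -3.03 ± 0.20 in the portal and -1.12 ± 0.19 in the stellate lineage. These 3 chains were singled out after their values were seen.

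Enzymes that modify and crosslink collagen rose in part. Of 20 genes 11 rose in both lineages, 4 fell and 1 was called with opposite signs, and library totals gave 14 risen. Besides Lox, the prolyl hydroxylase P4ha3 rose by 5.21 ± 0.31 in the portal and 7.51 ± 0.50 in the stellate lineage, and was 602-fold (108 to 23760.0) higher in HSC-MF-7d without HSC replicate 1. The procollagen chaperone Fkbp10 rose by 1.62 ± 0.12 in the portal and 3.11 ± 0.13 in the stellate lineage, and the lysyl hydroxylase Plod2, which prepares stable crosslinks, by 1.52 ± 0.12 in the portal and 3.38 ± 0.13 in the stellate lineage. Those that fell included the procollagen peptidase Adamts2, with -4.31 ± 0.29 in the portal and -1.45 ± 0.26 in the stellate lineage. The procollagen C-endopeptidase enhancer Pcolce fell as well, with -1.79 ± 0.15 in the portal and -1.81 ± 0.16 in the stellate lineage. Among the 11 that rose, the difference between lineages was called for 10, 9 of them larger in the stellate lineage, against 52.6% of all core genes that rose.

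Proteases and their inhibitors were mixed. Of 19 tested 7 rose, 2 fell and 6 were called with opposite signs. Mmp10, a stromelysin, rose by 5.79 ± 0.75 in the portal and 13.13 ± 0.79 in the stellate lineage, or by 7.01 without PMSC replicate 1 in the portal lineage. Mmp10 was 36400.0-fold (6532 to 1438000.0) higher in HSC-MF-7d without HSC replicate 2. The membrane protease Adam19 rose by 6.04 ± 0.15 in the portal and 4.98 ± 0.14 in the stellate lineage, and its relative Adam12 by 2.70 ± 0.19 in the portal and 2.5 ± 0.19 in the stellate lineage. Mmp2, a gelatinase, fell with -3.66 ± 0.19 in the portal and -1.07 ± 0.18 in the stellate lineage.

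TGF-beta pathway genes fell more often than they rose. Of 19 ligands, receptors and regulators 2 rose, 9 fell and 4 were called with opposite signs. Inhba, the activin subunit and the ligand that rose, had 494, 804, 647 and 562 CPM in the PMSC-MF-7d libraries, against 27.7, 29.2, 29.9 and 20.3 CPM in the PMSC libraries. It had 1509.9, 1504, 1535 and 1518 CPM in the HSC-MF-7d libraries, against 26.3, 35.0, 44.0 and 30.3 CPM in the HSC libraries. Cultured libraries were above fresh ones without overlap, and Inhba rose by 4.55 ± 0.17 in the portal and 5.48 ± 0.18 in the stellate lineage. Smad2, a signal transducer of the pathway, rose by 0.87 ± 0.10 in the portal and 0.53 ± 0.10 in the stellate lineage.

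Ltbp4, which anchors latent TGF-beta to the matrix, had 108, 51.6, 57.4 and 59.8 CPM in the PMSC-MF-7d libraries, against 6469, 6310.0, 5666 and 6333 CPM in the PMSC libraries. It had 18.1, 12.8, 14.6 and 14.0 CPM in the HSC-MF-7d libraries, against 1111, 1266, 1723 and 1559 CPM in the HSC libraries. Here every cultured library was below every fresh one, with -6.48 ± 0.24 in the portal and -6.57 ± 0.24 in the stellate lineage. Receptors fell as well, the co-receptor Tgfbr3 (betaglycan) with -4.35 ± 0.19 in the portal and -4.02 ± 0.19 in the stellate lineage, the type II receptor Tgfbr2 with -2.69 ± 0.10 in the portal and -1.24 ± 0.09 in the stellate lineage and endoglin (Eng), which endothelial cells share, with -1.16 ± 0.11 in the portal and -1.35 ± 0.11 in the stellate lineage.

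Growth factors and their receptors fell for 10 of 18 and rose for 4. Hgf, the hepatocyte growth factor that stellate cells secrete, averaged 10.6 ± 6.53 CPM in PMSC-MF-7d and 86.4 ± 23.6 CPM in PMSC, and 117 ± 12.7 CPM in HSC-MF-7d and 1052 ± 241 CPM in HSC, with -3.02 ± 0.32 in the portal and -3.17 ± 0.31 in the stellate lineage. The FGF receptor Fgfr2 fell with -2.25 ± 0.23 in the portal and -3.44 ± 0.24 in the stellate lineage, the VEGF receptor Flt1, which endothelial cells share, with -2.43 ± 0.27 in the portal and -5.21 ± 0.31 in the stellate lineage, and Igf1 with -2.0 ± 0.25 in the portal and -1.29 ± 0.24 in the stellate lineage. Risen were the collagen receptor Ddr1, by 2.10 ± 0.14 in the portal and 1.88 ± 0.14 in the stellate lineage, and the HGF receptor Met, by 2.31 ± 0.36 in the portal and 1.64 ± 0.35 in the stellate lineage, or 2.27 in the stellate lineage without HSC replicate 2.

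Integrins and adhesion genes rose for 8 of 19, fell for 2 and had opposite signs for 3. Itgav, the alpha V subunit of integrins that activate latent TGF-beta, had 761, 911, 1092 and 1006 CPM in the PMSC-MF-7d libraries, against 176, 229, 233 and 188 CPM in the PMSC libraries. It had 714, 700.2, 728 and 691 CPM in the HSC-MF-7d libraries, against 147, 172, 154 and 127 CPM in the HSC libraries. Cultured and fresh libraries were apart, and the changes of 2.19 ± 0.12 in the portal and 2.24 ± 0.12 in the stellate lineage were close. The fibronectin receptor chain Itga5 rose by 1.21 ± 0.16 in the portal and 3.64 ± 0.18 in the stellate lineage and the common beta chain Itgb1 by 1.26 ± 0.09 in the portal and 1.68 ± 0.09 in the stellate lineage. Itga4 rose by 1.08 ± 0.39 in the portal and 2.82 ± 0.37 in the stellate lineage, but its portal change was 0.72 without PMSC-MF-7d replicate 2, 0.86 without PMSC replicate 2 and 0.94 without PMSC replicate 4, and was not called in these fits. Itga8, the integrin chain of quiescent stellate cells, fell with -4.06 ± 0.28 in the portal and -3.32 ± 0.27 in the stellate lineage, and the adaptor paxillin (Pxn) with -1.43 ± 0.13 in the portal and -0.97 ± 0.12 in the stellate lineage.

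All 25 proteasome subunits tested rose in both lineages, with library totals as with trimmed means, whereas the size factors of DESeq2 with edgeR gave 24. The proteasome is the protease that degrades ubiquitin-tagged proteins, and its subunits are known to be regulated together. Their changes were small and even, 0.30 to 1.65 in the portal and 0.31 to 1.35 in the stellate lineage. Psmd2, a subunit of the regulatory particle, had 340.1, 392, 389 and 361 CPM in the PMSC-MF-7d libraries, against 133, 137, 134 and 147 CPM in the PMSC libraries. It had 419, 414, 404 and 422 CPM in the HSC-MF-7d libraries, against 169, 173, 163 and 145 CPM in the HSC libraries. Spread within groups was small beside the step between cultured and fresh libraries, 1.43 ± 0.07 in the portal and 1.35 ± 0.07 in the stellate lineage. Psmd14, the deubiquitinase subunit, rose by 1.65 ± 0.10 in the portal and 1.13 ± 0.10 in the stellate lineage, Psmd11 by 1.29 ± 0.11 in the portal and 1.32 ± 0.11 in the stellate lineage and the catalytic subunit Psmb5 by 1.25 ± 0.13 in the portal and 1.09 ± 0.13 in the stellate lineage.

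The interferon-inducible subunits that replace catalytic ones in immune cells went the other way. Psmb8 fell with -5.04 ± 0.23 in the portal and -3.45 ± 0.20 in the stellate lineage, Psmb9 with -6.34 ± 0.57 in the portal and -6.09 ± 0.47 in the stellate lineage and Psmb10 with -2.61 ± 0.17 in the portal and -3.94 ± 0.18 in the stellate lineage, and Psmb9 was 258-fold (71.3 to 2128) lower in PMSC-MF-7d without PMSC-MF-7d replicate 4. Thus no constitutive subunit fell and no immune subunit rose, as the plot of subunits shows. The difference between lineages was called for 10 of the 25 subunits, 9 of them larger in the portal lineage, against 52.6% of all core genes that rose.

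**Figure D3:**
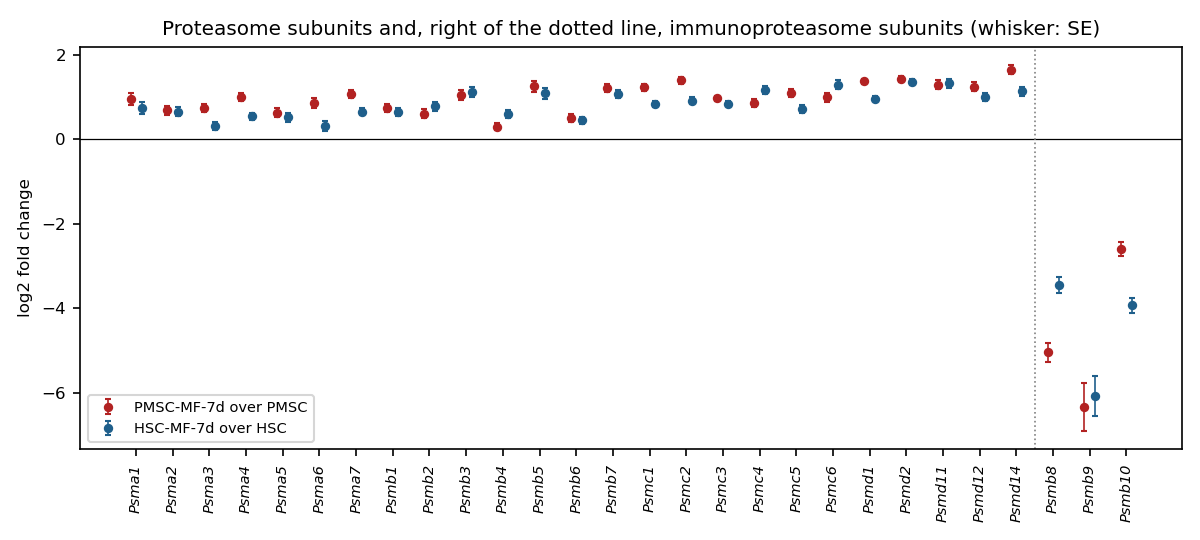
Log2 fold changes of cultured over fresh cells for 25 proteasome subunits and 3 immunoproteasome subunits in the portal and stellate lineages, with SE. The 25 constitutive subunits lie above 0 in both lineages and the 3 immune subunits below it.

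Energy genes rose in part. Of 22 glycolysis genes 11 rose in both lineages, 2 fell and 7 were called with opposite signs. Pgk1, an ATP-yielding enzyme of the pathway, had 189, 228, 205 and 202 CPM in the PMSC-MF-7d libraries, against 46.6, 35.9, 46.5 and 41.5 CPM in the PMSC libraries. It had 322, 317, 323 and 328 CPM in the HSC-MF-7d libraries, against 59.4, 61.9, 47.4 and 52.5 CPM in the HSC libraries. Groups did not overlap, and Pgk1 rose by 2.27 ± 0.09 in the portal and 2.54 ± 0.09 in the stellate lineage. Enolase (Eno1) rose by 3.46 ± 0.18 in the portal and 2.42 ± 0.17 in the stellate lineage, pyruvate kinase (Pkm) by 2.07 ± 0.08 in the portal and 2.29 ± 0.08 in the stellate lineage and Pgam1 by 1.98 ± 0.12 in the portal and 2.40 ± 0.12 in the stellate lineage, all enzymes of the later steps of the pathway.

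The glucose transporter Slc2a1, no core member, changed by -1.44 ± 0.13 in portal and 1.70 ± 0.13 in stellate culture (edgeR adjusted p at or below 3.6e-09 for each). Ldhb, which favours lactate use, fell with -1.76 ± 0.20 in the portal and -1.11 ± 0.20 in the stellate lineage. Respiratory chain and ATP synthase genes rose for 10 of 25 and fell for 1, and library totals gave 14 risen and none fallen. The ATP synthase subunits Atp5b and Atp5o rose by 1.02 ± 0.07 in the portal and 1.03 ± 0.07 in the stellate lineage, and by 0.89 ± 0.12 in the portal and 0.85 ± 0.12 in the stellate lineage. Uqcrc1 of complex III rose by 1.16 ± 0.09 in the portal and 0.84 ± 0.09 in the stellate lineage, and Ndufa4 by 0.92 ± 0.13 in the portal and 0.66 ± 0.12 in the stellate lineage. Ribosome assembly genes rose for 9 of 22 and fell for none in both, with the assembly factor Wdr12 at 2.15 ± 0.18 in the portal and 1.99 ± 0.17 in the stellate lineage, Bop1 at 1.31 ± 0.13 in the portal and 1.22 ± 0.13 in the stellate lineage, Utp20 at 1.56 ± 0.14 in the portal and 1.32 ± 0.14 in the stellate lineage and the RNA polymerase I subunit Polr1a at 1.33 ± 0.11 in the portal and 1.09 ± 0.11 in the stellate lineage. Library totals gave 14 risen for this list too.

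Stress and immune genes mostly fell. Of 29 immediate-early and stress genes 23 fell in both lineages, none rose in both and 3 were called with opposite signs. Fosb, an AP-1 subunit, had 4.60, 5.71, 3.23 and 2.62 CPM in the PMSC-MF-7d libraries, against 6963, 5932, 3587 and 4492 CPM in the PMSC libraries. It had 9.73, 12.2, 13.2 and 15.7 CPM in the HSC-MF-7d libraries, against 1029, 1196, 2522 and 1411 CPM in the HSC libraries. Fresh libraries stood far above cultured ones in both lineages, and the changes were -10.35 ± 0.39 in the portal and -6.92 ± 0.34 in the stellate lineage.

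Its relative Fos fell with -6.51 ± 0.46 in the portal and -7.26 ± 0.47 in the stellate lineage, the feedback inhibitor of cytokine signalling Socs3 with -7.86 ± 0.29 in the portal and -6.21 ± 0.27 in the stellate lineage and the heat shock chaperone Hspa1a, which shares sequence with Hspa1b, with -6.59 ± 0.38 in the portal and -5.45 ± 0.36 in the stellate lineage.

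Interferon response genes fell for 25 of 26 and rose for none. Rsad2 (viperin), an antiviral enzyme, fell with -6.18 ± 0.64 in the portal and -6.80 ± 0.57 in the stellate lineage, or -7.26 in the portal lineage without PMSC-MF-7d replicate 2. Mx2, an antiviral GTPase, averaged 0.137 ± 0.0917 CPM in PMSC-MF-7d and 50.5 ± 12.5 CPM in PMSC, and 0.358 ± 0.227 CPM in HSC-MF-7d and 23.5 ± 6.02 CPM in HSC, with -8.45 ± 0.39 in the portal and -6.00 ± 0.36 in the stellate lineage. Rtp4, an interferon-induced membrane protein, fell with -7.82 ± 0.24 in the portal and -5.85 ± 0.20 in the stellate lineage, and Oasl2, of the oligoadenylate synthetase family, with -6.22 ± 0.33 in the portal and -5.38 ± 0.31 in the stellate lineage, or -6.83 in the portal lineage without PMSC-MF-7d replicate 1.

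Antigen presentation genes fell for 15 of 16. H2-K1, a class I heavy chain that shares reads with other H2 genes, had 36.9, 31.3, 32.6 and 37.9 CPM in the PMSC-MF-7d libraries, against 1236, 1036, 880.0 and 1011 CPM in the PMSC libraries. It had 131, 121, 111 and 113 CPM in the HSC-MF-7d libraries, against 2313, 2613, 2417 and 2021 CPM in the HSC libraries. There was no overlap, and the changes were -4.91 ± 0.12 in the portal and -4.30 ± 0.11 in the stellate lineage. H2-D1 fell with -4.42 ± 0.11 in the portal and -3.93 ± 0.10 in the stellate lineage and H2-T23 with -3.91 ± 0.16 in the portal and -6.07 ± 0.18 in the stellate lineage. Cd74, the class II invariant chain of antigen-presenting cells, fell with -6.66 ± 0.73 in the portal and -12.16 ± 0.82 in the stellate lineage, with -5.77 without PMSC replicate 1 and -7.45 without PMSC-MF-7d replicate 1 in the portal lineage. It was 14300.0-fold (3959 to 118100.0) lower in HSC-MF-7d without HSC-MF-7d replicate 4.

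Complement genes fell for 18 of 19, with a median of -5.82 in the portal and -7.89 in the stellate lineage, or -7.76 in the stellate lineage with genes without a count set to their bound. C4b, a component of the classical pathway, had 11.1, 1.55, 1.47 and 2.01 CPM in the PMSC-MF-7d libraries, against 5579.6, 7149, 4085 and 3424 CPM in the PMSC libraries. It had 0.736, 0.304, 0.749 and 0.744 CPM in the HSC-MF-7d libraries, against 1176, 999.6, 507 and 312 CPM in the HSC libraries. Fresh portal libraries had the highest levels and every cultured library was far below, with -10.29 ± 0.72 in the portal and -10.21 ± 0.78 in the stellate lineage, or -11.52 in the portal lineage without PMSC-MF-7d replicate 1.

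C6, a terminal component, was 2895-fold (95% counting interval 519.5 to 114300.0) lower in PMSC-MF-7d than in PMSC and 7356-fold (95% counting interval 2517 to 35670.0) lower in HSC-MF-7d than in HSC. Cfb, factor B of the alternative pathway, fell with -9.07 ± 0.62 in the portal and -9.11 ± 0.58 in the stellate lineage. C7, another terminal component, fell with -12.42 ± 0.41 in the portal lineage and was at least 289-fold lower in HSC-MF-7d, where it had no count. Among 25 chemokine and cytokine genes 16 fell and 1 rose. The risen gene was Csf1, the growth factor of macrophages, by 2.21 ± 0.18 in the portal and 3.02 ± 0.18 in the stellate lineage. Cxcl10, an interferon-induced chemokine, fell with -9.24 ± 0.40 in the portal and -5.84 ± 0.34 in the stellate lineage, and the neutrophil chemokine Cxcl2 with -11.45 ± 0.60 in the portal and -7.97 ± 0.52 in the stellate lineage, or -7.37 in the stellate lineage without HSC replicate 1. Il6 was not a member, with -6.52 ± 0.36 in the portal lineage (edgeR adjusted p = 3.1e-12) and 0.61 ± 0.30 in the stellate lineage (adjusted p = 0.075). Of 2 lymphocyte markers tested 1 fell and 0 rose, of 9 bile duct markers 5 fell and 1 rose, and of 8 mesothelial markers 1 fell and 3 rose.

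Markers of other liver cell types fell with these genes. Of 20 hepatocyte markers 19 were in the core as fallen, and their summed CPM was 90.0 to 134 over the PMSC-MF-7d libraries against 1280.0 to 2321 over PMSC, and 192 to 243 over HSC-MF-7d against 5259 to 25870.0 over HSC. Of 18 endothelial markers 17 fell, with sums of 414 to 697 against 783 to 1192 CPM in the portal and 939 to 1023 against 11690.0 to 14110.0 CPM in the stellate lineage. In PMSC much of this sum was Eng, at 746 CPM, while Tek averaged 49.6, Pecam1 17.4, Stab2 13.0 and Cdh5 11.95 CPM. Ptprb, the marker called with opposite signs, rose to 267 CPM in PMSC-MF-7d. Of 18 macrophage markers 8 fell, with 11.5 to 16.6 CPM in PMSC-MF-7d against 29.5 to 39.5 in PMSC, and 35.5 to 67.5 in HSC-MF-7d against 3393 to 12540.0 in HSC.

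Of these markers the serum protein albumin (Alb) had 0.109, 1.30, 0.0367 and 0.0707 CPM in the PMSC-MF-7d libraries, against 60.1, 132, 31.9 and 37.9 CPM in the PMSC libraries. It had 0.421, 0.101, 0.409 and 0.637 CPM in the HSC-MF-7d libraries, against 10514, 9441, 2534 and 3362 CPM in the HSC libraries. The Kupffer cell lectin Clec4f averaged 1319.5 CPM in HSC, but 0.133 CPM in PMSC, and it was no core member. Clotting and complement genes are made by hepatocytes, and class II genes by macrophages and other antigen-presenting cells. The part of these cells in the falls above was not tested. Fallen genes of the highest rank included genes known from hepatocytes, among them Cyp2e1, an alcohol-metabolising cytochrome. Cyp2e1 had 0.200 ± 0.212 CPM in PMSC-MF-7d and 815 ± 171 CPM in PMSC, and 0.0133 CPM in HSC-MF-7d against 164 CPM in HSC. It thus stood higher in PMSC than in HSC, the reverse of Alb, and the cell type it came from was not tested.

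Other genes furthest down included Ahsg, Vtn and Ces1d, known from hepatocytes, the transporter Slco2b1, the secreted protein Olfml1, C6, C4b and Lrat. Vtn, the adhesion protein vitronectin, was 2668-fold (95% counting interval 913 to 12940.0) lower in PMSC-MF-7d than in PMSC. Olfml1 was 5049-fold (95% counting interval 1398 to 41690.0) lower in portal and 5553-fold (95% counting interval 997 to 219400.0) lower in stellate culture. Slco2b1 fell with -11.77 ± 0.43 in the portal and -10.92 ± 0.39 in the stellate lineage, and was 12080.0-fold (2168 to 477100.0) lower in PMSC-MF-7d without PMSC-MF-7d replicate 1.

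Identity genes of both lineages fell in both. Of 27 genes of quiescent stellate cells 22 fell in each lineage and 2 rose, and of 25 genes of portal fibroblasts 15 fell, 2 rose and 3 had opposite signs. Lrat, which esterifies retinol for storage in stellate cells, had 0.109, 0.0408, 0 and 0 CPM in the PMSC-MF-7d libraries, against 235, 91.1, 89.0 and 229 CPM in the PMSC libraries. It had 0.105, 0.507, 0.613 and 1.33 CPM in the HSC-MF-7d libraries, against 1495, 1571, 1667 and 1540.0 CPM in the HSC libraries. Portal libraries carried less of it before culture, yet both lineages lost nearly all, with -11.86 ± 0.59 in the portal and -11.25 ± 0.48 in the stellate lineage. Lrat was 12890.0-fold (2314 to 509300.0) lower in PMSC-MF-7d without PMSC-MF-7d replicate 1, and its stellate change was -11.92 without HSC-MF-7d replicate 4.

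Colec11, a collectin of stellate cells, fell with -8.03 ± 0.42 in the portal and -8.76 ± 0.40 in the stellate lineage. Reelin (Reln), a glycoprotein marking stellate cells, averaged 0.840 ± 0.457 CPM in PMSC-MF-7d and 47.3 ± 21.0 CPM in PMSC, and 217 ± 9.36 CPM in HSC-MF-7d and 6548 ± 1390.0 CPM in HSC. Cultured stellate libraries thus held more of it than fresh portal ones, and the changes were -5.83 ± 0.37 in the portal and -4.91 ± 0.32 in the stellate lineage. The 2 stellate genes that rose were nestin (Nes), an intermediate filament of activated cells, by 3.39 ± 0.23 in the portal and 2.63 ± 0.22 in the stellate lineage, and the lipid droplet protein Plin2, by 1.27 ± 0.12 in the portal and 0.31 ± 0.12 in the stellate lineage.

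Of the portal genes, dermatopontin (Dpt), a matrix protein, averaged 2.62 ± 1.67 CPM in PMSC-MF-7d and 8503 ± 868 CPM in PMSC, and 0.0830 ± 0.0664 CPM in HSC-MF-7d and 11.3 ± 7.74 CPM in HSC, with -11.66 ± 0.53 in the portal and -6.98 ± 0.70 in the stellate lineage, or -6.39 in the stellate lineage without HSC replicate 2. The matricellular protein Smoc2 fell with -6.66 ± 0.32 in the portal and -3.91 ± 0.29 in the stellate lineage. The progenitor antigen Ly6a (Sca-1) fell with -3.28 ± 0.34 in the portal and -8.55 ± 0.51 in the stellate lineage, and elastin (Eln) with -3.24 ± 0.67 in the portal and -3.95 ± 0.89 in the stellate lineage, or -5.66 in the stellate lineage without HSC-MF-7d replicate 1. Fibulin 2 (Fbln2) rose by 2.81 ± 0.30 in the portal and 9.78 ± 0.42 in the stellate lineage and the surface protein Cd248 (endosialin) by 1.46 ± 0.32 in the portal and 1.69 ± 0.33 in the stellate lineage. Thy1, a surface glycoprotein of fibroblasts, was no core member, with 1.97 ± 0.33 in portal culture (edgeR adjusted p = 2.6e-05) and 0.92 ± 0.45 in stellate culture (adjusted p = 0.073, and 1.24 without HSC-MF-7d replicate 2), and the difference was 1.05 ± 0.56 (edgeR adjusted p = 0.12).

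**Figure D4:**
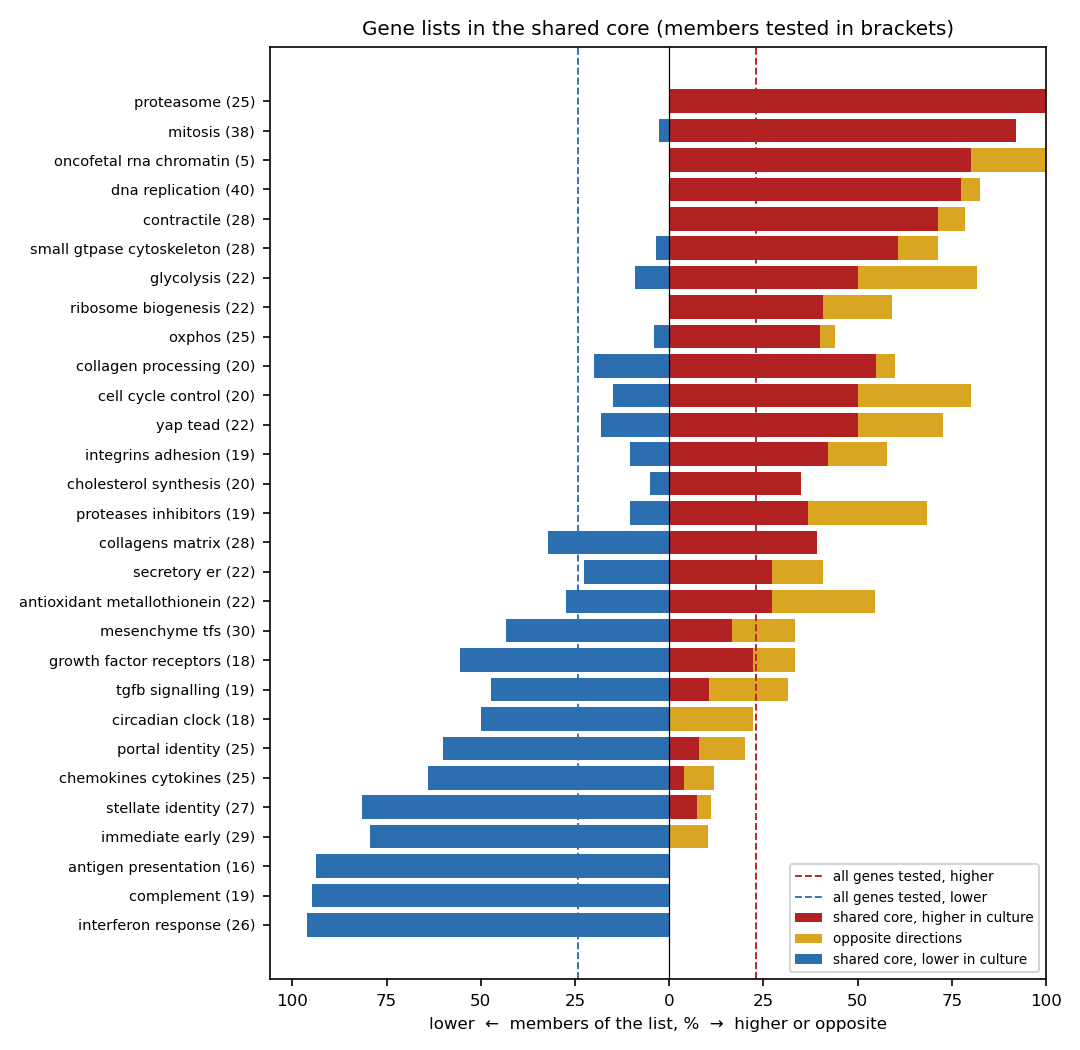
Share of each gene list's tested members (number in brackets) in the core as risen (right, red) or fallen (left, blue), and called with opposite signs (right, gold). Dashed lines give the shares over all genes tested, 23% and 24.1%. Proteasome and mitosis lists have the largest risen shares, and the interferon, complement and antigen presentation lists the largest fallen shares. Lists of markers of other cell types are not drawn.

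Sharing a direction did not mean sharing a size. The difference between the culture changes was called for 60.6% of all genes tested, and for 1786 core genes that rose (52.6%) and 1691 that fell (47.6%). Of the risen ones 1046 rose more in the portal and 740 more in the stellate lineage. Of the fallen ones 943 fell more in the portal and 748 more in the stellate lineage.

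Genes with a large difference included some near silence in 1 fresh lineage. Igfbp2, a binding protein of insulin-like growth factors, averaged 441 ± 93.6 CPM in PMSC-MF-7d and 2.22 ± 1.17 CPM in PMSC, and 64.0 ± 23.4 CPM in HSC-MF-7d and 19.9 ± 11.1 CPM in HSC, a difference of 5.90 ± 0.53 (edgeR adjusted p = 1.6e-08). Pdpn (podoplanin), a surface glycoprotein of reticular fibroblasts, averaged 319.8 ± 28.6 CPM in PMSC-MF-7d and 173 ± 71.0 CPM in PMSC, and 118 ± 22.2 CPM in HSC-MF-7d and 0.0905 ± 0.181 CPM in HSC. It differed by -9.38 ± 0.57 (edgeR adjusted p = 6.4e-11), and Pdpn was at least 1972-fold higher in HSC-MF-7d without HSC replicate 1. Grem1, a BMP antagonist, rose by 3.76 ± 0.32 in the portal lineage and was at least 1352-fold higher in HSC-MF-7d than in HSC, which had no count.

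Npnt, an integrin ligand of basement membranes, rose by 4.83 ± 0.25 in the portal lineage and was at least 2123-fold higher in HSC-MF-7d, and Unc5c, a netrin receptor, rose by 2.35 ± 0.26 and was at least 577-fold higher there, both without a count in HSC. Of genes that fell, Aqp1, a water channel of endothelium and bile ducts, had -1.01 ± 0.43 in the portal and -10.13 ± 0.63 in the stellate lineage. Its place in the core depended on which libraries entered the fit. The portal change was -0.22 without PMSC replicate 1 and was not called in 10 of the 16 fits that left a library out. Itih2 and Alb, products of hepatocytes, differed by 6.55 ± 1.0 (edgeR adjusted p = 1.4e-05), and by 6.51 ± 1.45 (edgeR adjusted p = 7.0e-04). Itih2 changed by -9.60 ± 0.78 in the stellate lineage and was 1402-fold (479.7 to 6797) lower in HSC-MF-7d without HSC-MF-7d replicate 2, and the portal change of Alb, -7.49 ± 0.78, was -9.68 without PMSC-MF-7d replicate 2.

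Levels of the lineages were less far apart after culture than before it, for core genes as for all genes. PMSC-MF-7d and HSC-MF-7d differed in 1628 core genes that rose (47.9%), against 2220 (65.4%) between PMSC and HSC. For genes that fell these counts were 1839 (51.8%) and 2635 (74.2%). Over all genes tested the calls were 47.1% after culture and 73.7% before. The median absolute lineage difference (log2) of the risen genes was 0.33 after and 0.56 before culture, that of the fallen genes 0.66 and 0.97, and that of all genes 0.45 and 0.90.

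**Figure D5:**
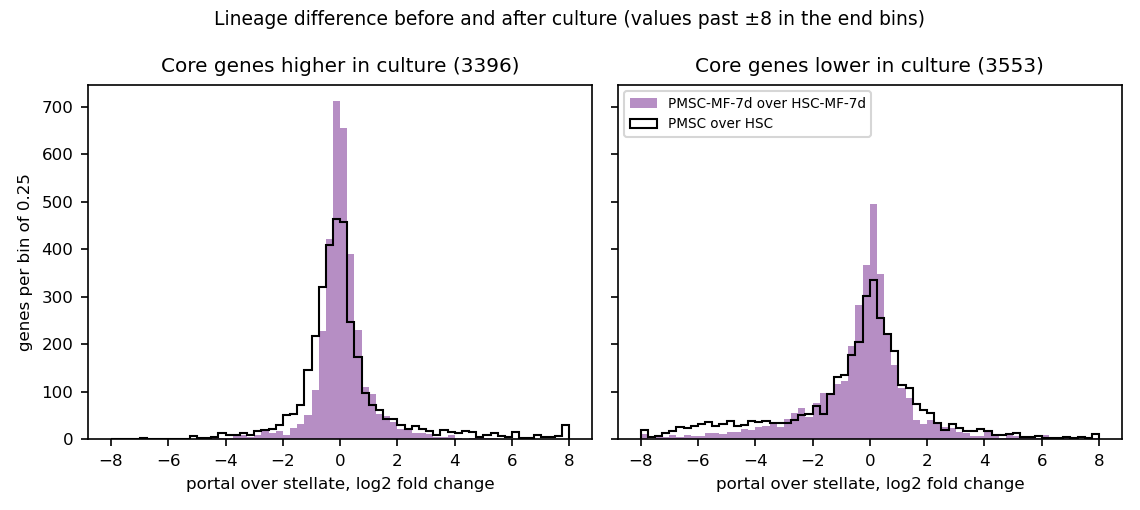
Distribution of the portal over stellate log2 fold change between cultured groups (filled) and between fresh groups (outline), for core genes that rose (left) and fell (right). The filled distributions are narrower, with medians of the absolute difference of 0.33 against 0.56 and 0.66 against 0.97.

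Portal myofibroblasts at 3 days, set against the same fresh PMSC libraries, give the core's values at an earlier time. The median change of core genes that rose was 1.34 at 3 days and 1.27 at 7 days, and of those that fell -2.28 and -2.14. Of the risen genes 3279 and of the fallen 3501 had the same sign at 3 days. The 7-day change that chose these genes uses the same fresh libraries, so this agreement is partly built in and is no result. Timp1 had 4.0 ± 0.31 at 3 days and 2.22 ± 0.29 at 7 days. Acta2 had 4.31 ± 0.21 at 3 and 5.0 ± 0.22 at 7 days, and Mki67 4.75 ± 0.26 and 4.99 ± 0.27. The 3-day group was also put in the place of the 7-day group, a choice made after seeing the data. The core then held 3366 risen and 3737 fallen genes, of which 6388 were also in the 7-day core. Both cores use the same fresh and stellate libraries, so part of this overlap is built in.

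At the edge of the core, membership was a matter of small steps in adjusted p. Just inside were the tight junction gene Cgn, with -2.50 ± 1.12 in the portal and -2.69 ± 0.87 in the stellate lineage, Plekhf2 with -0.19 ± 0.09 in the portal and -1.49 ± 0.09 in the stellate lineage and the endoplasmic reticulum protein Rcn3 with -1.27 ± 0.11 in the portal and -0.24 ± 0.11 in the stellate lineage. Just outside were Laptm5 with -2.40 ± 1.08 in the portal and -5.92 ± 0.41 in the stellate lineage, the zinc transporter Slc39a8 with -0.48 ± 0.22 in the portal and -3.39 ± 0.22 in the stellate lineage and the lysosomal protease Ctsd with 0.33 ± 0.10 in the portal and 0.23 ± 0.10 in the stellate lineage. Cgn reached only 0.0659 CPM in PMSC-MF-7d and 0.376 CPM in PMSC, and without PMSC replicate 2 its portal change was 0.37. In fits that left out 1 library, the portal call changed in 12 of 16 for Cgn and 15 of 16 for Plekhf2. Without a single library the core kept between 6579 and 6770 of its 6949 genes.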

How the data were processed

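The 20 libraries belong to 5 groups, and 16 libraries entered the comparisons. A stranded mRNA kit was used, per the labels' protocols. The submitters' processing notes name mm10, STAR 2.5.3a, RSEM 1.2.28, Trimmomatic and FastQC, without settings or strand use. Deposited expected counts are RSEM estimates for each gene, without normalisation, per the file headers. Deposited TPM values, per the file headers, entered 1 alternative.

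Rounded expected counts were tested with edgeR 4.0.16 in R 4.3.3 (robust quasi-likelihood fit, a mean for each group, trimmed-mean scaling), and filterByExpr left out 10097 genes. Adjustment (Benjamini and Hochberg, threshold 0.05) ran across every gene tested. A standard error is the size of the change over the square root of F. The core, its 35 gene lists (756 genes) and the tests were chosen with earlier results of these data known. Named genes are from the 4 markers, the 10 core genes furthest up and down by the smaller lineage change (at least 20 CPM, no overlap of libraries), up to 4 members of a list in its leading and 2 in its other direction (at least 10 CPM), the 5 largest lineage differences and opposite changes each way, the 3 genes on each side of the threshold, and markers of other cell types. Chosen outside this rule after their values were seen were Col1a1, Col1a2, Col3a1, Ccnd1, Cdkn1a, Yap1, Wwtr1, Psmb8, Psmb9, Psmb10, Il6, Pcna, Slc2a1, Ccnb1, Cdk1, Myl9, Thy1, Reln and Clec4f. Bounds set a group without counts to 3 counts over its 4 libraries, and 95% intervals cover counting error only. RSEM divides reads among near-identical genes, so Prl2c2, Hspa1a, Hmga1 and H2 genes are uncertain. Alternatives used DESeq2 1.42.0, limma 3.58.1 on log2(TPM + 1), other scalings, filters, thresholds, a replicate block, left-out libraries and the 3-day group. RefSeq promoters were matched by symbol. Some genes that the rule would name are not reported here.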

Additional observations from a re-analysis of the deposited data

Results flagged for a closer look

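For genes whose levels are given library by library, each group of 4 was searched for a library far from the other 3, past Dixon's 95% critical value. One was found in 14 of 88 groups looked at. The critical value allows about 1 in 20 for independent, normally spread values. These groups share libraries and some have libraries without a count, so the number found cannot be set against chance. HSC replicate 2 was the highest of its group, with 5.96 CPM for Timp1 and 0.477 CPM for Tll1. HSC replicate 4 was the highest of its group, with 8.30 CPM for Ankrd1 and 5.75 CPM for Nqo1. HSC-MF-7d replicate 1 was the highest of its group, with 378 CPM for Tll1. HSC-MF-7d replicate 1 was the lowest of its group, with 1025 CPM for Ccng1. HSC-MF-7d replicate 2 was the lowest of its group, with 0.304 CPM for C4b. PMSC replicate 2 was the highest of its group, with 1068 CPM for Lox, 15.4 CPM for Mki67 and 0.821 CPM for Tll1. PMSC-MF-7d replicate 1 was the highest of its group, with 11.1 CPM for C4b, 1.56 CPM for Cdkn1c and 108 CPM for Ltbp4. PMSC-MF-7d replicate 2 was the highest of its group, with 1.30 CPM for Alb. Their causes were not tested.

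Of the 163 core genes described here, 96 had changes that differed between the lineages by the test of the difference itself (edgeR, adjusted p at or below 0.048). The difference was called for 52.6% of all core genes that rose, 47.6% of those that fell and 60.6% of all genes tested. Some of the 163 were named because of a large called difference, so the count of 96 is no result about the core. The values below are the portal change minus the stellate change on the log2 scale. A positive value means a larger rise or a smaller fall in the portal lineage. For genes with few or no counts in a group the size of the value is uncertain.

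Positive differences for contraction, cytoskeleton and YAP were Diaph3 3.88, Ajuba 1.97, Crim1 1.25 and Rhob 1.05. Negative values in the group of contraction, cytoskeleton and YAP were S100a6 -6.70, Cnn1 -4.70, Igfbp3 -4.12, Actg2 -3.76, Acta2 -3.57, Gadd45a -2.73, Myof -2.40, Anxa1 -0.98 and Myl9 -0.92. Positive differences in the group of matrix, its processing and proteases were Adam19 1.07. Negative differences for matrix, its processing and proteases were Mmp10 -7.34, Col12a1 -6.91, Col11a1 -5.90, Lox -5.74, Lum -5.61, Timp1 -5.18, Dcn -4.56, Adamts2 -2.87, Ctgf -2.61, Mmp2 -2.58, P4ha3 -2.29, Col3a1 -1.91, Plod2 -1.86 and Fkbp10 -1.49. Positive differences for other genes were Aqp1 9.12, Itih2 6.55, Alb 6.51, Igfbp2 5.90, Hmga2 3.80 and Plekhf2 1.30. Negative values in the group of other genes were Unc5c -9.71, Grem1 -9.53, Pdpn -9.38, Npnt -9.11, Rcn3 -1.03 and Hmga1 -0.87. Unc5c, Grem1 and Npnt had no count in HSC, so the size of their values depends on how the fit treats such groups. All 6 HSC counts of Pdpn came from replicate 1. Positive differences in the group of cell cycle were Bub1 5.11, Cdk1 4.73, Ccnb1 4.39, Plk1 3.14, Mki67 2.86, Gins2 2.14, Aurka 1.89, Ube2c 1.81, Cdkn2b 1.21 and Chaf1a 0.55. Negative differences for cell cycle were Cdkn1c -4.46, Ccne2 -1.35, Cdk6 -0.51 and Rbl2 -0.47. Positive differences for metabolism, protein turnover and clock were Sqle 1.94, Msmo1 1.42, Eno1 1.04, Nqo1 0.53, Psmd14 0.52 and Uqcrc1 0.32. Negative values in the group of metabolism, protein turnover and clock were Mt2 -5.48, Bhlhe40 -3.06, Npas2 -1.32, Insig1 -0.84 and Pgam1 -0.42. Positive differences in the group of stress and immune response were Cd74 5.51, H2-T23 2.15 and Psmb10 1.33. Negative differences for stress and immune response were Cxcl2 -3.47, Fosb -3.43, Cxcl10 -3.40, Mx2 -2.44, Rtp4 -1.97, Socs3 -1.66, Psmb8 -1.59, Hspa1a -1.14, Csf1 -0.81, H2-K1 -0.61 and H2-D1 -0.49. Positive differences for cell identity and transcription were Ly6a 5.26, Plin2 0.95 and Nes 0.77. Negative values in the group of cell identity and transcription were Fbln2 -6.97, Dpt -4.68, Tcf21 -3.77, Smoc2 -2.75 and Runx2 -1.02. Positive differences in the group of signalling and adhesion were Flt1 2.79, Fgfr2 1.19 and Smad2 0.34. Negative differences for signalling and adhesion were Itga5 -2.44, Itga4 -1.74, Tgfbr2 -1.46, Inhba -0.93, Pxn -0.46 and Itgb1 -0.42.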

How the results depend on the processing

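Counts of main-effect calls, of the core in each direction and of differences between the lineages stayed within 1.5 times of the values given under the alternatives run, with 1 exception. A threshold of at least 2-fold in each lineage left 1496 risen and 2256 fallen core genes, and 1695 called differences among them, since it asks for more. Leaving out each library in turn gave 3317 to 3491 risen and 3366 to 3570 fallen core genes, 5757 to 6011 main-effect calls higher and 5787 to 5977 lower, and 8595 to 8983 differences, 3181 to 3524 of them in the core. DESeq2 (Wald test) gave 3273 risen and 3764 fallen core genes, with no adjusted p for 13 genes. Of 4964 main-effect values of 191 core genes under the naming rule, in alternatives, 4959 kept their direction and call. The other 5 kept the direction and lost the call, namely Ndufb5 at -0.04 with library totals, -0.03 with limma on log2(TPM + 1) and -0.09 with the 3-day portal group, Cgn at -1.14 without PMSC replicate 2, and Cd248 at 0.15 with the 3-day portal group. The cause was not tested. Of named genes outside the core, the main-effect call changed in 4 of the 16 fits without 1 library for Cyp26b1, 2 each for B4galt6 and Yap1, and 1 each for Slc2a1 and Clec4f. Uncalled main effects changed sign for Mmp3, at 0.10 without HSC replicate 2 against -0.21, and Ptprb, at 0.11 without PMSC replicate 1 against -0.16. Deviations of same-numbered fresh and cultured libraries correlated between -0.04 and 0.04. No shared deviation was thus seen, but this cannot tell if the libraries were paired, since culture may remove such deviations. With the replicate number as a block the core held 3376 risen and 3507 fallen genes, 6808 of them shared with the fit without it. Depth limits genes at the floor, as 242 core genes had no count in PMSC-MF-7d, 115 in PMSC, 161 in HSC-MF-7d and 197 in HSC.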

Other observations

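Clock genes were a falling group. Of 18 tested 9 fell in both lineages, none rose in both and 4 were called with opposite signs, against 24.1% of all genes in the core as fallen, and library totals gave 8. Per1, a period repressor of the clock, changed by -2.55 ± 0.24 in the portal and -2.16 ± 0.24 in the stellate lineage, and the activator Arntl (BMAL) by -1.40 ± 0.26 in the portal and -1.10 ± 0.26 in the stellate lineage. Bhlhe40, a repressor of clock genes, changed by -5.24 ± 0.18 in the portal and -2.18 ± 0.16 in the stellate lineage and the activator Npas2 by -4.29 ± 0.35 in the portal and -2.97 ± 0.34 in the stellate lineage.

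Cholesterol synthesis genes rose for 7 of 20 and fell for 1, Insig1, the sterol-dependent brake of the pathway, with -1.97 ± 0.21 in the portal and -1.13 ± 0.20 in the stellate lineage. Squalene epoxidase (Sqle) rose by 3.17 ± 0.39 in the portal and 1.24 ± 0.35 in the stellate lineage, or 1.87 in the stellate lineage without HSC replicate 2, and the sterol oxidase Msmo1 by 2.29 ± 0.17 in the portal and 0.87 ± 0.16 in the stellate lineage. Of 22 antioxidant and metallothionein genes 6 rose and 6 fell (27.3% each), near the shares of all genes tested given above. Nqo1, a quinone reductase and NRF2 target, had 206, 270.2, 268 and 297 CPM in the PMSC-MF-7d libraries, against 4.92, 4.61, 3.24 and 5.29 CPM in the PMSC libraries. It had 212, 155, 173 and 155 CPM in the HSC-MF-7d libraries, against 3.92, 3.87, 4.18 and 5.75 CPM in the HSC libraries. Its groups were far apart in both lineages, with 5.83 ± 0.17 in the portal and 5.29 ± 0.17 in the stellate lineage. Sod3, the extracellular superoxide dismutase, fell with -4.98 ± 0.29 in the portal and -4.33 ± 0.28 in the stellate lineage, and metallothionein 2 (Mt2) with -7.04 ± 0.33 in the portal and -1.56 ± 0.26 in the stellate lineage.

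Mesenchymal transcription factors fell for 13 of 30 and rose for 5, and library totals gave 8 fallen. Tcf21, a factor of fibroblast and stellate precursors, fell with -6.51 ± 0.28 in the portal and -2.75 ± 0.24 in the stellate lineage, and Lhx2, which restrains stellate activation, with -2.63 ± 0.34 in the portal and -2.69 ± 0.31 in the stellate lineage. Runx2, a factor of bone-forming cells, rose by 2.16 ± 0.20 in the portal and 3.19 ± 0.21 in the stellate lineage, and Mkl1, the actin-sensing co-activator of serum response factor, by 2.09 ± 0.15 in the portal and 2.20 ± 0.15 in the stellate lineage. In the endoplasmic reticulum list 6 of 22 rose (27.3%) and 5 fell (22.7%), near the shares of all genes tested given above. Library totals gave 10 and 3 for this list, but they also moved the whole core, to 4371 risen and 2690 fallen genes. The coat protein Sec23a rose by 1.41 ± 0.08 in the portal and 1.51 ± 0.08 in the stellate lineage, while the stress sensor output Xbp1 fell with -1.26 ± 0.08 in the portal and -1.22 ± 0.08 in the stellate lineage.

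Outside the core, the genes called with opposite signs included Mmp3, a stromelysin, at 1.89 ± 0.805 CPM in PMSC-MF-7d and 795 ± 183 CPM in PMSC and 162 ± 61.3 CPM in HSC-MF-7d and 0.512 ± 0.344 CPM in HSC, with -8.72 ± 0.47 in the portal and 8.30 ± 0.52 in the stellate lineage. The cytokine Lif had -3.79 ± 0.32 in the portal and 5.31 ± 0.40 in the stellate lineage, the protease inhibitors Tfpi2 -3.41 ± 0.26 in the portal and 4.52 ± 0.27 in the stellate lineage and Serpine2 -3.33 ± 0.22 in the portal and 4.43 ± 0.23 in the stellate lineage, and Fndc1 -5.77 ± 0.30 in the portal and 3.87 ± 0.29 in the stellate lineage. The other orientation held Cyp26b1, which degrades retinoic acid, with 2.97 ± 0.53 in the portal and -4.87 ± 0.55 in the stellate lineage, the phosphatase Ptprb with 2.83 ± 0.37 in the portal and -3.15 ± 0.37 in the stellate lineage and Adam23 with 2.71 ± 0.31 in the portal and -5.97 ± 0.36 in the stellate lineage. Epb41l3 and B4galt6 followed with 3.25 ± 0.29 in the portal and -2.06 ± 0.29 in the stellate lineage, and 1.91 ± 0.26 in the portal and -2.55 ± 0.27 in the stellate lineage. These were chosen by the size of the smaller change.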
